A study of Mus musculus with 18 samples.

Results

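Heat shock chaperone genes encode proteins that hold, refold or sort other proteins, and 10 of them were followed here in mouse aorta: Hspa1a, Hspa1b, Hspa8, Hspa5, Hsph1, Hspb1, Dnaja1, Dnajb1, Hsp90aa1 and Hspd1. They were taken by symbol from a table of 55453 gene symbols, and they were selected on their mutant against wild-type values in these same libraries. The mutant against wild-type levels of these genes are therefore given as a description, with no test.

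Bulk RNA-seq had been made from individual aortae of mice that carried an edited CArG box, the binding site of serum response factor, in the promoter of Tspan2. In the HDR experiment, Cas9 with a repair template had put a 3-base substitution into this site, and 5 homozygous mutants (Tspan2 sg/sg) were compared with 5 wild-type mice, all 12 weeks old and labelled C57BL/6. In the PE2 experiment, prime editing, in which a nicking Cas9 carries its own reverse transcriptase, had changed a single base of the same site, and 4 homozygous mutants (Tspan2 peg/peg) were compared with 4 wild-type mice, all 8 weeks old and labelled FVB/N/B6(Cg)-Tyrc-2J/J. Both edits are germline and present in every cell. Apart from Tyrc-2J in the PE2 strain label, the labels name no other allele, and they name no treatment. Age, strain label and sequencing depth differ between the experiments. The labels give 3 females and 2 males for each HDR group, 3 females and 1 male for the PE2 wild type and 4 females for peg/peg. HDR libraries are named here as in the table columns (WT_2 to WT_6 and Mut_2 to Mut_6), since the columns give the genotype but not which labelled mouse they hold.

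Most cytosolic chaperone genes are switched on by heat shock factor 1, which binds repeats of the heat shock element in their promoters when unfolded proteins build up. HSP70 proteins grip exposed stretches of unfolded client proteins and let go in a cycle driven by ATP, J-domain proteins (HSP40) bring them clients, HSP110 exchanges their nucleotide, and HSP90 finishes the folding of signalling proteins and receptors. The chaperones of the endoplasmic reticulum (ER) and of mitochondria are tuned by other programmes, the ER ones by the unfolded protein response. Transcripts of the inducible members are known to rise during tissue handling and dissection, which bears on any dissected artery.

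The start regions of the genes were searched for exact matches to the heat shock element. Of the 10 members, 8 matched the table of RefSeq promoter windows (build GRCm38.p6, 250 bases before to 50 bases after each start), while Hspa8 and Hsp90aa1 had no entry. The heat shock element was searched as GAANNTTC or TTCNNGAA, which both read the same on either strand, and 15.1% of all 32851 windows held at least 1 match. Of the 8 members, 6 held a match in at least 1 window, against 17.0% of all 27025 genes, and Dnajb1 and Hspa5 held none. The inducible HSP70 genes Hspa1a and Hspa1b and the small heat shock protein gene Hspb1 are shown with the 150 bases before the start, where no Gencode M21 exon lies, and capitals mark the matches:
Hspa1a (chr17:34972157-34972306, minus strand): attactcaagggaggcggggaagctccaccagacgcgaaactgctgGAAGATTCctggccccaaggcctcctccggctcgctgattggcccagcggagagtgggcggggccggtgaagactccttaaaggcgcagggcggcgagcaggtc
Hspa1b (chr17:34959239-34959388, minus strand): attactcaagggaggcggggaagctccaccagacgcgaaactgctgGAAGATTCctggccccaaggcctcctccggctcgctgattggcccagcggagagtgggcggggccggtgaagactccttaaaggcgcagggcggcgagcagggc
Hspb1 (chr5:135887769-135887918, plus strand): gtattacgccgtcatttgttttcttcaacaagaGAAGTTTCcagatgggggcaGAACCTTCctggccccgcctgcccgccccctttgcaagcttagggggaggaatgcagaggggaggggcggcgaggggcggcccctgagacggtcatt

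The Hspa1a and Hspa1b stretches differ at 1 base, and over all 250 bases before the start 247 are the same (98.8%). In both, the match begins 104 bases before the start. Hspb1 holds 2 matches, beginning 117 and 97 bases before the start. The matches of Hsph1, Dnaja1 and Hspd1, and the ER stress element of Hspa5, lie where some Gencode M21 transcript has an exon, so 30 bases around each are shown, with the matches in capitals:
Hsph1 (chr5:149636351-149636380, minus strand): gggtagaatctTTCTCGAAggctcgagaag
Dnaja1 (chr4:40722333-40722362, plus strand): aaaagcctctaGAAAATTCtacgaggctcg
Hspd1 (chr1:55088053-55088082, minus strand): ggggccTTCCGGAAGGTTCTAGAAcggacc
Hspa5 (chr2:34772020-34772049, plus strand): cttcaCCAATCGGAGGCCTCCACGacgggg

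Hspd1 holds 3 overlapping matches, and Hsph1 holds 2 further ones just after the start shown; 3 or more matches were found in 0.256% of all windows. The first of them begins 144 bases before the later of the 2 RefSeq starts of Hspd1. The ER stress element, searched on both strands as CCAAT, 9 bases of any kind and then CCACG, was found in Hspa5 alone among the members with an entry, 65 bases before the start, and in 0.119% of all windows. A match describes letters in the window and is not evidence of binding. Nor does the lack of an exact match show that a gene has no such element.

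The genes lie on 8 chromosomes in GRCm38. Hspa1a (ENSMUSG00000091971) and Hspa1b (ENSMUSG00000090877) are neighbours on the minus strand of chromosome 17, at chr17:34969190-34972156 and chr17:34956436-34959238. They are near-identical copies: of the 75-base stretches of their transcripts, 52.7% in Hspa1a and 55.8% in Hspa1b occur in both, or 47.1% and 49.9% at 100 bases. Reads from shared stretches cannot be placed in 1 of the pair, so the separate levels are uncertain and their sum is given beside them. How the counting treated such reads is not given in the sources used here. If they were left out, the sum lacks them too and is too low.

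HDR libraries held 17290992 to 24880385 counts and PE2 libraries 38820265 to 44895615. Tspan2 was lower in every mutant library, at 16.0 to 36.6 CPM (counts per 1000000, on library sizes scaled by the trimmed mean of M-values) against 112 to 265 in HDR wild types and at 11.9 to 25.5 against 186 to 284 CPM in PE2. Tspan2 was the 1 gene that passed edgeR's quasi-likelihood test at a Benjamini-Hochberg adjusted p of 0.05 in each experiment, of 16423 genes tested in HDR and 16401 in PE2. Smooth muscle markers (Acta2, Myh11, Tagln, Cnn1, Lmod1 and Myocd) summed to between 15260.3 and 51611 CPM, as the tissue label says. Libraries that stood apart were peg/peg 3, with 1135 CPM of skeletal muscle markers against 6.72 to 22.6 in the other PE2 libraries and 180 CPM of fat markers against 1518 to 5076, and the 4 HDR libraries WT_5, WT_6, Mut_5 and Mut_6. These 4 held 7255 to 8024 counts over 4 Y-linked genes and 18 to 39 of Xist, whereas the other 6 held at most 1 and 22132 to 31399. Their number per genotype is that of the labelled males.

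Per kilobase of exon, the constitutive HSP70 genes led in wild-type aorta. Hspa8, the HSP70 that cells always make, was at 141 ± 72.0 CPM per kb in HDR wild types (SD, n = 5) and 132 ± 37.0 in PE2 wild types (SD, n = 4). Hspa5, the ER member also called BiP, was at 96.0 ± 50.8 and 213 ± 46.1 CPM per kb. Then followed Hspb1 at 51.0 ± 39.1 and 84.2 ± 21.5, Hspd1, the mitochondrial chaperonin HSP60, at 46.4 ± 19.03 and 52.7 ± 14.5, and Hsp90aa1, the stress-inducible HSP90, at 43.4 ± 25.8 and 37.2 ± 8.49 CPM per kb. These neighbours in the order overlapped between libraries of the same group. In bulk aorta, a change in the share of a cell type and a change of RNA per cell cannot be told apart for any of these genes.

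The order ended differently in the 2 experiments. In PE2 wild types Hspa1a was at 4.56 ± 1.25 and Hspa1b at 4.22 ± 0.884 CPM per kb, just below Dnaja1 at 5.79 ± 1.504, with overlapping ranges. In HDR wild types the means were 17.2 ± 19.5 for Hspa1a and 18.1 ± 21.7 for Hspa1b, with WT_5 and WT_6 far above the other 3 libraries. Hsph1, the HSP110 exchange factor, was at 17.6 ± 15.04 and 14.4 ± 6.20, and Dnajb1, the main HSP40 partner of inducible HSP70, at 13.5 ± 10.7 and 10.8 ± 1.29 CPM per kb. Lengths are the union of all Gencode M21 exons, which is long for Dnaja1 (8629 bases) and so lowers its value. For Hspa1a and Hspa1b the lengths include the stretches shared by both. If reads from these were not counted, their values and their place in the order are too low.

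In the HDR experiment, the members differed far more among mice of 1 genotype than between genotypes. Hspa1a was at 9.80, 17.0, 19.2, 60.3 and 148 CPM in WT_2, WT_3, WT_4, WT_5 and WT_6, and at 10.9, 15.6, 14.4, 23.5 and 175 CPM in Mut_2, Mut_3, Mut_4, Mut_5 and Mut_6. Hspa1b was at 8.84, 19.99, 17.7, 51.8 and 156 CPM in the same order of wild types and at 8.19, 13.0, 11.3, 22.8 and 194 CPM in the mutants. WT_6 and Mut_6 were the highest of their genotype for both genes, and the genotypes overlapped over almost the whole range. From the lowest to the highest library, Hspa1b spanned 23.6-fold and Hspa1a 17.9-fold. The within-genotype SD of log2 CPM was 1.72 for Hspa1b and 1.595 for Hspa1a, above that of 99.6% and 99.5% of all genes tested, whose median SD was 0.31.

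The HSP70 partners had the same high libraries. Hsph1 was at 40.8, 63.4, 62.4, 170 and 301 CPM in the wild types and at 50.8, 55.9, 47.3, 122 and 320 CPM in sg/sg. Dnajb1 was at 16.1, 20.5, 24.7, 57.7 and 97.4 CPM in the wild types and at 16.9, 21.5, 19.97, 31.3 and 76.1 CPM in sg/sg. Dnaja1, a farnesylated HSP40, was at 30.4, 41.7, 46.9, 84.6 and 118 CPM in the wild types and at 31.3, 42.1, 39.1, 52.5 and 130 CPM in sg/sg. In all of these, libraries WT_5, WT_6, Mut_5 and Mut_6 lay above the other 6.

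Constitutive and inducible members shared this order of libraries. Hspa8 was at 294, 471, 459, 713 and 1090 CPM in the wild types and at 344, 381, 389, 613 and 1409 CPM in sg/sg. Hsp90aa1 was at 68.3, 113, 134, 210 and 327 CPM in the wild types and at 85.8, 96.8, 103, 196 and 402 CPM in sg/sg. Hspb1, an actin-protecting small heat shock protein (HSP25), was at 16.5, 35.3, 29.3, 64.5 and 117 CPM in the wild types and at 26.3, 26.2, 29.98, 53.8 and 156 CPM in sg/sg. The ER chaperone Hspa5 was at 205, 272, 303, 528 and 723 CPM in the wild types and at 279, 247, 288, 485 and 676 CPM in sg/sg, a 3.53-fold span from lowest to highest.

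Hspd1 departed from the pattern. It was at 93.6, 87.5, 94.8, 130 and 208 CPM in the wild types and at 99.4, 93.2, 141, 102 and 136 CPM in sg/sg. Mut_4, which lacked Y transcripts, ranked second and Mut_5 fell among the other libraries. Its span was 2.37-fold and its within-genotype SD of log2 CPM was 0.42, above that of 66.7% of genes.

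**Figure D1:**
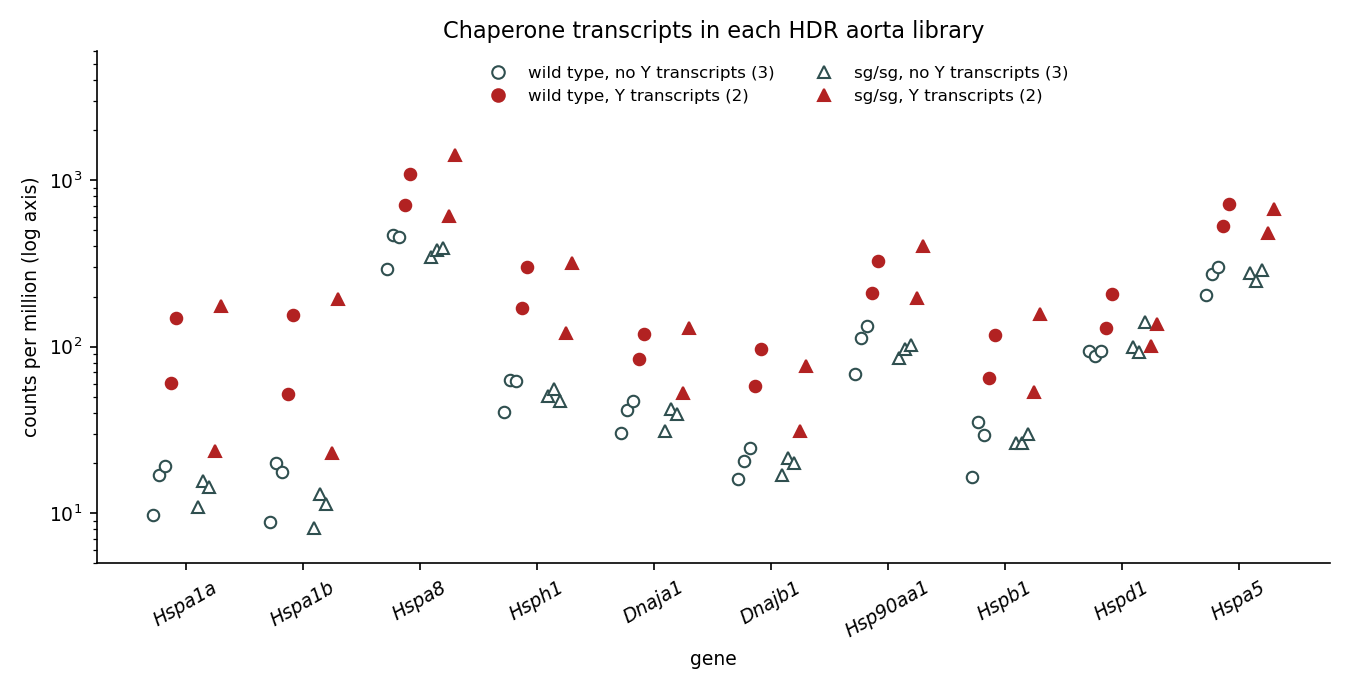
CPM (log axis) of the 10 genes in each of the 10 HDR libraries; circles are wild type, triangles are sg/sg, and filled red symbols are the 4 libraries with Y-linked transcripts. The red symbols lie above all open symbols in 9 of 10 genes, the exception being Hspd1, while circles and triangles overlap in every gene.

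Counted over the members, all 4 libraries with Y transcripts lay above all 6 others in 9 of 10 genes, against 9.49% of the 16423 genes tested. This count was made after the values were seen, with no test, and the labels do not say whether sex, litter, or the day or order of dissection also separates these libraries. Their 4 column names carry the numbers 9 to 12 in front, whose meaning is not given in the sources used here, so sex and anything else these libraries share cannot be told apart. Of the summed cell type lists, only the endothelial and Schwann cell markers separated by the same split. Smooth muscle, fibroblast, lymphoid, macrophage, fat, skeletal muscle and cardiac muscle markers overlapped. The summed endothelial markers were at 904 to 1522 CPM in the 4 libraries against 1545 to 2468 in the other 6, and the summed Schwann cell markers at 201 to 296 against 140 to 197 CPM. Summed immediate early genes, which cells switch on within minutes of a stimulus, were at 769 to 1172 against 507 to 882 CPM, with overlap. What part these had in the chaperone levels was not tested.

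In PE2, the single library with Y transcripts, wild-type replicate 4, which the labels give as male, was not high. It lay within the range of the other 3 wild types in 6 of 10 members, below them in 4 and above them in 0. Hspa1b, for example, was at 8.80 CPM in this library against 11.6 to 14.9 CPM in the 3 females, and Hspa8 at 433 against 435 to 753 CPM. This library is a single mouse, of another age and strain label than the HDR mice, and peg/peg holds no labelled male. What part sex had in either experiment was not tested.

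The HDR genotypes did not separate in any member. The log2 fold change of sg/sg over wild type (a difference of levels on the log2 scale, ± its standard error) ran from -0.39 ± 0.54 for Dnajb1 to 0.15 ± 0.60 for Hspb1. It was -0.09 ± 0.90 for Hspa1a, -0.03 ± 0.97 for Hspa1b, 0.05 ± 0.44 for Hspa8, 0.05 ± 0.49 for Hsp90aa1 and -0.04 ± 0.37 for Hspa5. For all 10 members the value lay within 1 standard error of 0. Without Mut_6 the values of Hspa1a and Hspa1b were -1.66 and -1.88, and without WT_6 they were 0.85 and 1.02, and the sign also turned without any of Mut_2 to Mut_5 (up to 0.14 for Hspa1a and 0.22 for Hspa1b). Over the 10 members the median was -0.06 against 0.00 for all genes tested, with 3 positive and 7 negative.

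Within the libraries of like Y transcripts, the mean log2 difference between genotypes changed sign between the 2 sets in 4 of 10 members (Hspa8, Hspa5, Hsp90aa1 and Hspd1). Among the 6 libraries without Y transcripts, Hspd1 averaged 111 CPM in sg/sg against 92.0 in wild type (3 libraries each), and Hspa5 271 against 260 CPM. Among the 4 with them, Hspd1 averaged 119 CPM in sg/sg against 169 in wild type (2 libraries each), and Hspa5 581 against 626 CPM. The mean log2 difference was negative in both sets for 5 members (Hspa1a, Hspa1b, Hsph1, Dnaja1 and Dnajb1) and positive in both for Hspb1. It was -0.12 without and -0.54 with Y transcripts for Hspa1a, and -0.43 and -0.42 for Hspa1b, whose mean CPM with Y transcripts was nevertheless higher in sg/sg (108 against 104), with Mut_6 at 194. In none of the 10 members did every sg/sg library lie above every wild-type library, which 0.122% of all genes tested did. None was called by edgeR or DESeq2, against 0.00609% and 0.00933% of all genes. With Y transcripts as a covariate, chosen after seeing the data, the standard error of the log2 fold change fell to 0.44 for Hspa1a (at -0.13) and to 0.15 for Hspa5 (at -0.01).

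In the PE2 experiment, 8 of 10 members had a positive log2 fold change, and those of inducible HSP70 were the largest of the 10. Hspa1b was at 12.1, 11.6, 14.9 and 8.80 CPM in wild-type replicates 1 to 4 and at 23.7, 87.3, 29.0 and 30.2 CPM in peg/peg replicates 1 to 4. Every peg/peg library thus lay above every wild type. Hspa1a was at 14.9, 9.94, 18.2 and 11.2 CPM in the wild types and at 41.4, 119, 13.6 and 48.5 CPM in peg/peg, so that 3 of 4 peg/peg libraries lay above the wild-type range and peg/peg 3 within it. The log2 fold change was 1.85 ± 0.43 for Hspa1b and 2.04 ± 0.58 for Hspa1a.

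The share of the pair given to Hspa1a differed in peg/peg 3. Hspa1a made up 31.9% of its Hspa1a and Hspa1b counts (exact 95% Clopper-Pearson interval 29.9 to 34.1, counting error only), while it made up 46.2% to 56.0% in the wild types and 57.7% to 63.6% in the other peg/peg libraries. In HDR libraries the share ran from 45.9% to 57.1%. The sum of both genes was 19.98 to 33.0 CPM in PE2 wild types and 65.0, 206, 42.7 and 78.7 CPM in peg/peg 1 to 4, with no overlap. Peg/peg 3 was therefore the lowest of the mutants in the sum as well, yet above all wild types.

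**Figure D2:**
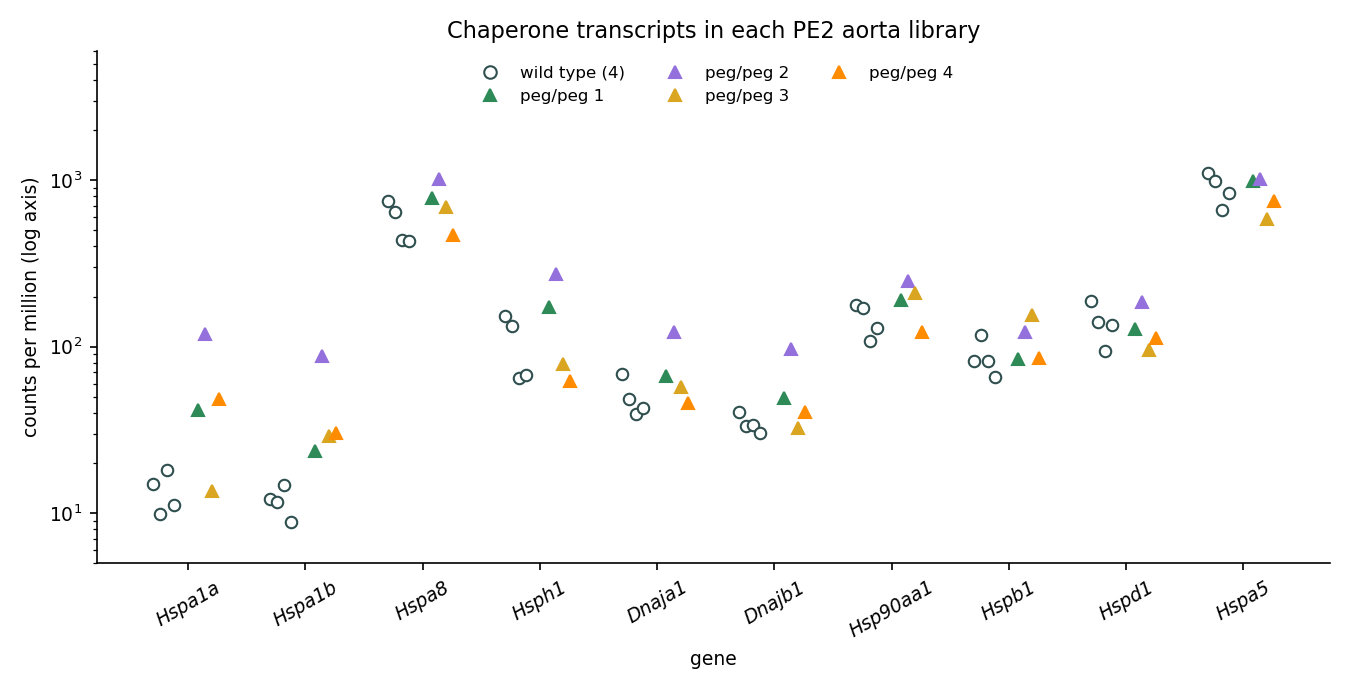
CPM (log axis) of the 10 genes in each of the 8 PE2 libraries; open circles are wild type and coloured triangles are peg/peg 1 to 4. Hspa1b alone has no overlap between groups, and peg/peg 2 is the highest of all 8 libraries in 7 of 10 genes.

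For the HSP70 partners, peg/peg 2 set the upper end. Dnajb1 was at 40.3, 33.4, 33.9 and 30.4 CPM in the wild types and at 49.0, 97.3, 32.4 and 40.3 CPM in peg/peg. Dnaja1 was at 68.6, 48.6, 39.6 and 43.1 CPM in the wild types and at 67.0, 122, 57.0 and 46.1 CPM in peg/peg. Hsph1 was at 153, 132, 64.8 and 67.6 CPM in the wild types and at 174, 275, 78.6 and 61.8 CPM in peg/peg. In Hsph1 the wild types themselves split, replicates 1 and 2 being higher than 3 and 4, and peg/peg 4 was the lowest of all 8. The log2 fold changes were 0.67 ± 0.32 for Dnajb1, 0.55 ± 0.31 for Dnaja1 and 0.49 ± 0.51 for Hsph1.

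Hspa8 was at 753, 647, 435 and 433 CPM in the wild types and at 781, 1023, 693 and 471 CPM in peg/peg. Hsp90aa1 was at 177, 172, 108 and 129 CPM in the wild types and at 192, 247, 211 and 122 CPM in peg/peg. Hspb1 was at 81.7, 118, 82.3 and 65.4 CPM in the wild types and at 84.6, 123, 154 and 85.9 CPM in peg/peg. The groups overlapped in all of these. In Hsp90aa1, as in Dnajb1, 3 of 4 peg/peg libraries lay above the wild-type range. In Dnajb1, however, peg/peg 4 all but tied with WT 1, at 40.27 against 40.26 CPM. The log2 fold changes were 0.39 ± 0.28 for Hspa8, 0.40 ± 0.24 for Hsp90aa1 and 0.37 ± 0.25 for Hspb1. Hspb1 was highest in peg/peg 3, the library rich in skeletal muscle markers, and the part of muscle RNA in this value was not tested.

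The organelle chaperones had the 2 negative fold changes of the set. Hspa5 was at 1112, 988, 660 and 838 CPM in the wild types and at 989, 1024, 585 and 752 CPM in peg/peg, and its log2 fold change was -0.10 ± 0.24. Hspd1 was at 187, 141, 93.8 and 135 CPM in the wild types and at 128, 186, 95.1 and 112 CPM in peg/peg, with a log2 fold change of -0.09 ± 0.26. Replicate WT 1 was the highest of all 8 libraries for both genes.

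**Figure D3:**
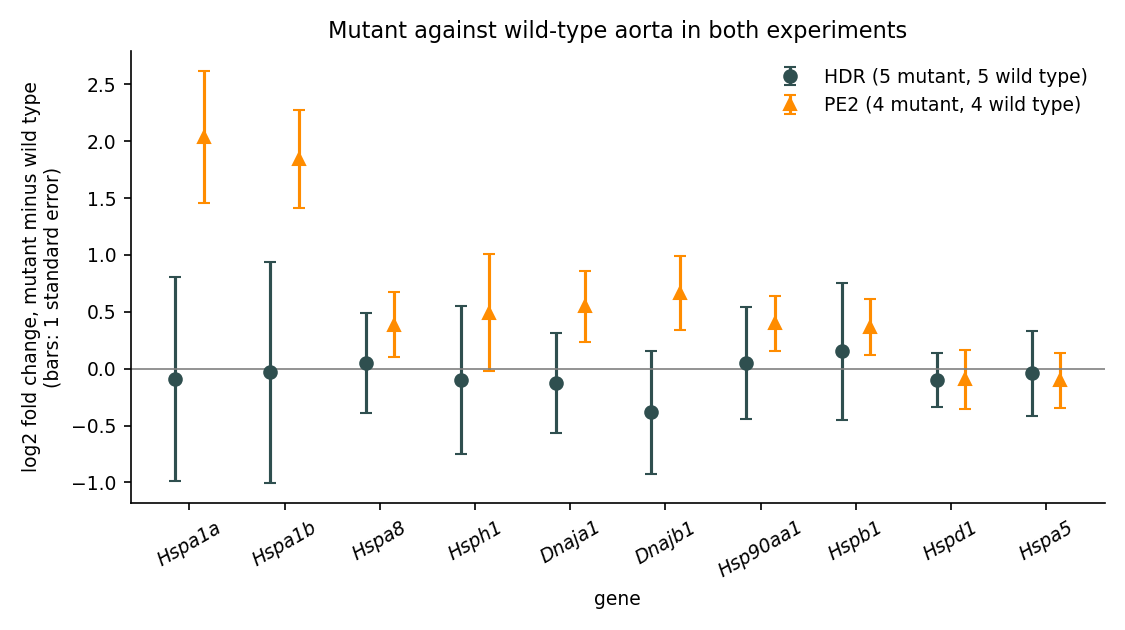
Log2 fold change of mutant over wild type for the 10 genes, with bars of 1 standard error, in HDR (circles, 5 against 5) and PE2 (triangles, 4 against 4). All HDR bars cross 0, and the PE2 values of Hspa1a (2.04) and Hspa1b (1.85) lie highest.

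Over the members the PE2 median log2 fold change was 0.45, with 8 positive and 2 negative, against a median of 0.01 over all genes tested. Of the 10 members, 1 (Hspa1b) had every mutant library above every wild type, which 1.43% of all genes tested had. None was called by edgeR, against 0.0061% of all genes, and Hspa1b alone was among the 33 genes called by DESeq2's Wald test (0.189% of the 17481 genes with an adjusted p). Since the members were selected on this contrast, nothing is read from these counts. Without peg/peg 2, the log2 fold change of Hspa1a was 1.34 and that of Hspa1b 1.216, and without peg/peg 3 they were 2.35 and 1.98. No test was made of a difference between the experiments.

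A single library, peg/peg 2, was the highest of all 8 in 7 of 10 members, against 11.2% of all genes tested. The exceptions were Hspb1 (highest in peg/peg 3), Hspa5 and Hspd1 (highest in WT 1). The members were selected on mutant against wild-type values, which favours genes high in a mutant library, so nothing is read from this count. Among the other chaperone genes peg/peg 2 was the highest in 26 of 95. It also had the most endothelial markers, 2982 CPM against 583 to 2139 in the other 7 libraries. Its cardiac muscle markers were at 155 CPM against 43.6 to 67.4 in the wild types. This was not particular to it, since these markers were at 532 CPM in peg/peg 3, 98.9 in peg/peg 4 and 61.2 in peg/peg 1. The part of these in the chaperone levels was not tested. The SD of log2 CPM within genotypes in PE2 was 0.95 for Hspa1a, above that of 85.8% of genes, and 0.64 for Hspa1b, above 74.1%, both lower than in HDR.

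Immediate early genes were summed in the PE2 libraries beside inducible HSP70. The 14 genes of this list, transcription factors and feedback regulators, summed to 391 to 651 CPM in the wild types and to 1566, 1214, 623 and 1514 CPM in peg/peg 1 to 4. As for Hspa1a, peg/peg 3 was the mutant within the wild-type range, but the order of the other mutants differed: peg/peg 2, with the highest HSP70 sum, lay below peg/peg 1 and 4 for these genes. In the fit across all genes the log2 fold change was 1.91 ± 0.70 for Fos, 1.21 ± 0.34 for Egr1 and 2.26 ± 0.76 for Atf3, each with an adjusted p of 0.861 by edgeR's quasi-likelihood test. In HDR, where the sums overlapped between genotypes, the values were 0.63 ± 0.55 for Fos, 0.49 ± 0.24 for Egr1 and -0.30 ± 0.54 for Atf3, with an adjusted p of 1.00 by the same test. What part handling or dissection had in either set of genes was not tested.

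**Figure D4:**
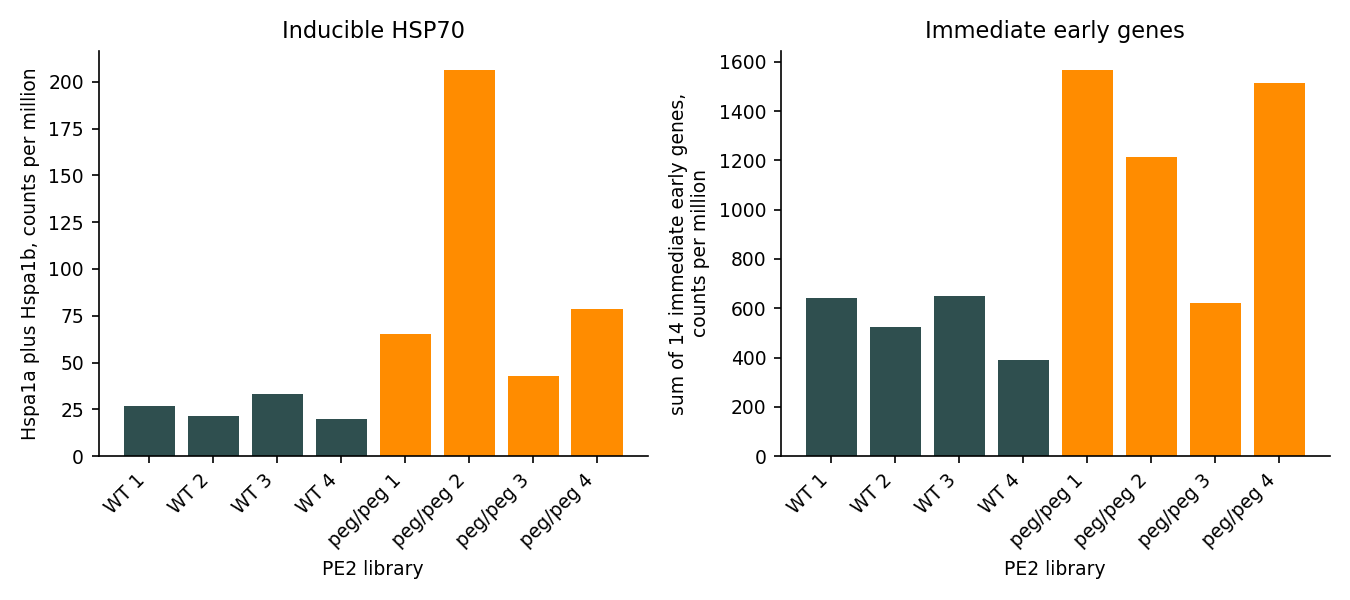
Summed CPM of Hspa1a and Hspa1b (left) and of 14 immediate early genes (right) in each PE2 library; each bar is 1 library, dark for wild type and orange for peg/peg. Peg/peg 2 has the highest HSP70 sum (206 CPM) and peg/peg 3 the lowest of the mutants in both panels.

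Beyond the members, 97 further chaperone and co-chaperone genes were listed by role, of which 95 passed the filter on low counts in both experiments. None was called by edgeR or DESeq2 in either experiment. At an unadjusted edgeR p of 0.05, 1 of 95 was lower in sg/sg, against 1.63% of all genes tested, and 3 of 95 were higher in peg/peg, against 3.04%. These shares are near those of all genes, and the smallest adjusted p was 1.00 in HDR and 0.861 in PE2. The median log2 fold change of the 95 genes was 0.00 in HDR and 0.01 in PE2.

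The gene lower in sg/sg at an unadjusted p was Hspa12a, a divergent HSP70 relative, at 19.97 ± 3.71 CPM in wild type and 14.8 ± 4.17 in sg/sg (SD, n = 5), with a log2 fold change of -0.44 ± 0.19. The next by unadjusted p were Unc45a, a myosin chaperone, at 0.19 ± 0.14, and Hsf1 at 0.15 ± 0.11. The 3 in PE2 were Atf4, the transcription factor of the integrated stress response, at 0.25 ± 0.09, Herpud1, an ER membrane protein of the degradation pathway, at 0.39 ± 0.14, and Dnajb4, a cytosolic HSP40, at 1.30 ± 0.50. Atf4 was at 169 to 184 CPM in the wild types and 193 to 224 in peg/peg, and Herpud1 at 86.8 to 96.0 and 98.0 to 154 CPM. They were the 2 of 95 genes in which every peg/peg library lay above every wild type, against 1.43% of all genes tested, and in HDR there were 0. The adjusted p by edgeR's quasi-likelihood test was 1.00 for each of the 3 HDR genes and 0.861 for each of the 3 PE2 genes.

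Dnajb4 followed Hspa1a in its high libraries. It was at 142, 92.7, 96.4 and 63.2 CPM in PE2 wild types and at 332, 384, 68.8 and 187 CPM in peg/peg, with peg/peg 3 again in the wild-type range. In HDR it was at 245 to 695 CPM in the 4 libraries with Y transcripts and at 76.3 to 166 CPM in the other 6. Its highest library was Mut_6 in HDR and peg/peg 2 in PE2, as for Hspa1a.

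**Figure D5:**
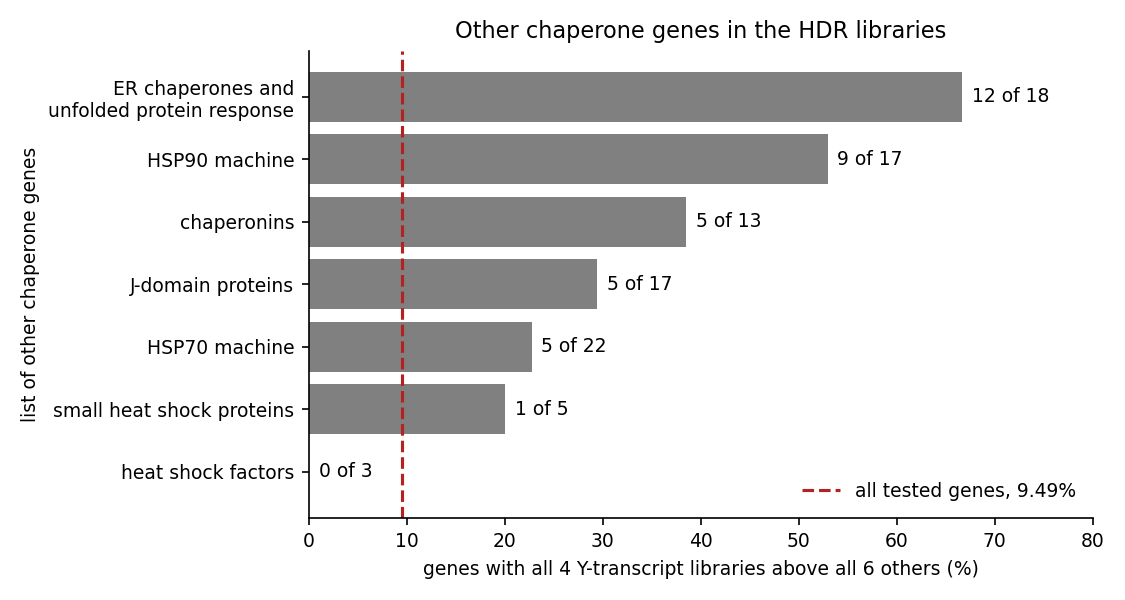
Share of other chaperone genes, by list, in which all 4 HDR libraries with Y transcripts lay above all 6 others; the dashed line is the share over all genes tested (9.49%). The ER list is highest with 12 of 18 genes, and none of the 3 heat shock factor genes showed the pattern.

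The split of the HDR libraries extended to 37 of the 95 other chaperone genes (38.9%, against 9.49% of all genes). By list it held in 12 of 18 genes of the ER and unfolded protein response, 9 of 17 of the HSP90 machine, 5 of 13 chaperonins, 5 of 17 J-domain proteins, 5 of 22 of the HSP70 machine, 1 of 5 small heat shock proteins and 0 of 3 heat shock factors. The constitutive HSP90 gene Hsp90ab1 was at 726 to 1067 CPM in the 4 libraries against 509 to 625 in the other 6, and the ER HSP90 gene Hsp90b1 at 610 to 726 against 404 to 496 CPM. Stip1, which hands clients from HSP70 to HSP90, was at 75.7 to 137 against 47.2 to 59.5 CPM, and the ER exchange factor Hyou1 at 122 to 161 against 89.1 to 106 CPM. The small heat shock protein gene Cryab was at 84.9 to 127 against 45.6 to 69.0 CPM.

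Several partners did not show the split. Hsf1 was at 27.5 to 39.2 CPM in the 4 libraries and 26.0 to 33.9 in the others, and Hsf2 at 22.3 to 27.8 against 20.5 to 27.7 CPM, with overlap in both heat shock factor genes. The HSP70 exchange factor Bag3 was at 42.9 to 72.7 against 40.4 to 55.4 CPM, and Hspa4, an HSP110 relative, at 235 to 341 against 177 to 236 CPM. The mitochondrial partners of Hspd1 were like it: Hspe1, its co-chaperonin HSP10, was at 20.2 to 39.2 against 14.7 to 25.4 CPM, and mitochondrial HSP70 Hspa9 at 216 to 391.5 against 180 to 333 CPM. The muscle-rich small heat shock protein genes Hspb6 and Hspb8 also overlapped, at 35.9 to 52.8 against 31.9 to 67.5 CPM and at 85.5 to 137 against 54.2 to 109 CPM.

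In PE2 the same genes had overlapping genotypes. The log2 fold change was 0.16 ± 0.16 for Hsp90ab1, -0.12 ± 0.15 for Hsp90b1, 0.14 ± 0.18 for Stip1, -0.09 ± 0.20 for Hyou1, 0.28 ± 0.14 for Bag3, -0.14 ± 0.12 for Hsf1 and 0.07 ± 0.10 for Hsf2. It was -0.37 ± 0.23 for Hspe1, -0.22 ± 0.26 for Hspa9 and -0.16 ± 0.15 for Hspa4. Hspb8 was at 352 CPM in peg/peg 3 against 101 to 148 in the other PE2 libraries, and Hspb6 at 342 in it against 112 to 297 CPM.

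Genes were ranked by the lower of 2 Pearson correlations, over 10 HDR and over 8 PE2 libraries, among 14751 genes. Log2 CPM deviations from the genotype mean were correlated with those of the summed Hspa1a and Hspa1b. Members were left out of the genes named, and a member may lie as high as the 5 genes most like inducible HSP70. They were Rce1, a protease of prenylated proteins (r = 0.92 in HDR and 0.91 in PE2), Bap1, a deubiquitinase (0.90 and 0.94), Ccdc117 (0.96 and 0.90), Gfod1 (0.91 and 0.87) and Jmjd6, an oxygenase that acts on arginine and lysine residues (0.92 and 0.87). For Hspa5 they were Dnajc3, its ER J-domain partner (0.96 and 0.95), Nfil3, a transcription factor (0.97 and 0.94), Derl2, an ER degradation factor (0.93 and 0.95), Stil, a centriole protein (0.97 and 0.93), and Aga, a lysosomal enzyme (0.94 and 0.93). The HDR points fall into the 4 and 6 libraries described, and in PE2 peg/peg 2 weighs heavily on the HSP70 sum, so these values describe order over few libraries. Dnajc3 was at 203 to 276 CPM in the 4 HDR libraries with Y transcripts and at 134 to 190 in the others, and at 124 to 206 CPM over the PE2 libraries.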

How the data were processed

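Aortae of individual mice were sequenced, and per the submitters' notes and the methods the authors aligned reads with STAR 2.7.0f to GRCm38, counted them per gene with featureCounts of Subread 1.6.4 on Gencode M22 and ran DESeq2 1.22.1. The deposited tables used here hold raw counts per gene symbol. The authors' second table per experiment, a normalised signal, equals those counts divided by DESeq2 size factors in every value and was used for that check alone. Labels and methods name different library kits and read lengths, and the strand setting of the counting is not given in the sources used here. No column of per-sample values was left unused (0 columns).

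The 10 members and all gene lists were chosen with earlier results of these data known. Within each experiment, genes passing edgeR's filterByExpr were scaled by TMM and tested by genotype with the quasi-likelihood test (edgeR 4.0.16 in R 4.3.3, adjusted p threshold 0.05), where the study had used DESeq2, here an alternative (1.42.0). CPM values use TMM-scaled library sizes, and log2 CPM has a prior count of 1. The fit was tested on simulated counts. No pair of libraries of the same group agreed within sampling noise (chi-square per degree of freedom at least 17.2). Depth limits little for members, since the lowest held 150 counts in a library.

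Genes named were the members and, of the other chaperone genes, those called, those with the 3 smallest unadjusted p-values in each experiment and a list by role (Hsf1, Hsf2, Bag3, Hsp90ab1, Hsp90b1, Hspe1, Hspa9, Hspa4, Hyou1, Stip1, Hspb6, Hspb8, Cryab and Dnajb4). Also named were the 5 genes, members apart, most like inducible HSP70 and like Hspa5, and 3 immediate early genes. Promoter windows came from RefSeq (GRCm38.p6) and exon lengths from Gencode M21. The alternatives were DESeq2, other scalings and filters, leaving out each library, the replicate number as a block in PE2 and, chosen after seeing the data, Y transcripts as a covariate in HDR.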

Additional observations from a re-analysis of the deposited data

Results flagged for a closer look

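Of 40 groups of a member's CPM values, 8 held a library far from the others of its group (the gap to the nearest library over the whole range was above Dixon's 95% critical value), where chance flags about 1 group in 20. In sg/sg the library was Mut_6 in 7 members. It was at 175 CPM for Hspa1a, 194 for Hspa1b, 1409 for Hspa8, 320 for Hsph1, 156 for Hspb1, 130.1 for Dnaja1 and 76.1 CPM for Dnajb1. In peg/peg it was replicate 2 for Hspa1b, at 87.3 CPM. These 8 values share 2 libraries and are not independent of each other. WT_6 was the highest wild type in the same genes but was not far enough from WT_5 to be marked. It lay above Mut_6 in Dnajb1 (97.4 CPM) and below it in the others, as in Hsph1 (301 CPM) and Hspb1 (117 CPM). No member moved one way in every mutant library of one experiment and the opposite way in every mutant library of the other.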

How the results depend on the processing

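The genes called in HDR were 1 by edgeR, 4 by DESeq2's Wald test and 4 without the filter on low counts, and in PE2 they were 1 by edgeR and 33 by DESeq2. Leaving out 1 library at a time gave 0 to 2 calls in PE2 (2 without peg/peg 3, 1 without WT 3 and 0 without any of the other 6, which are WT 1, 2 and 4 and peg/peg 1, 2 and 4) and 1 in HDR each time. With the replicate block PE2 had 0 calls. The PE2 replicate numbers do not pair the mice by the data (same-number correlations of deviations 0.03, -0.24, -0.06 and -0.29), and the HDR columns carry no label numbers, so no such fit was made there. Other chaperone genes called stayed at 0 in all alternatives, the added Y-transcript covariate included.

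Of 280 alternative log2 fold changes of members, 279 moved by less than 1 within-genotype SD of log2 CPM, and 41 changed sign, 37 of them in HDR. The exception was Hspa1b in HDR, at -1.88 without Mut_6 (range when 1 library was left out -1.88 to 1.02). Hspa1a ranged from -1.66 to 0.85. That SD, between mice, was 1.595 for Hspa1a in HDR, so a move of less than 1 SD does not mean a stable fold change. In PE2 the 4 sign changes were in Hspa5 and Hspd1, Hspa1a ranged from 1.34 to 2.35 and Hspa1b from 1.216 to 2.04, and Hsph1 fell to 9e-05 without peg/peg 2. Read stretches shared by Hspa1a and Hspa1b limit their separate levels, and also their sum if such reads were not counted. The 4 or 5 mice a group limit every fold change.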

Other observations

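Summed over each list of other chaperone genes, the genotypes overlapped in both experiments for all 7 lists. In HDR, the ER list summed to 2724 to 3322 CPM in the 4 libraries with Y transcripts and to 2019 to 2466 CPM in the other 6. The HSP90 list was at 2215 to 3079 against 1628 to 1942 CPM, the J-domain list at 1375 to 2072 against 1050 to 1342 CPM, and the chaperonin list at 1275 to 1689 against 860 to 1230 CPM, all without overlap. The HSP70 list (1384 to 1815 against 1179 to 1390 CPM) and the small heat shock protein list (313.2 to 510 against 324 to 514 CPM) overlapped. These sums were looked at after the members' values were seen and were not tested.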
